A study of Bos taurus with 24 samples.

Results

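Early bovine blastocysts that developed in the cow were compared with blastocysts made in culture, to find the genes shifted alike in 2 in vitro systems, one with serum and one without. All 24 embryos of the series entered the comparison, 8 in each of the 3 conditions, and each was a single embryo of quality grade 1. Of 24621 genes listed, 7096 had at least 15 counts in all 8 in vivo derived embryos or in all 16 in vitro produced embryos and were tested. Of these, 45 differed by at least 2-fold with an adjusted p-value under 0.05 in each medium and in the average of both media, in the same direction, and they are called common genes here. Of the common genes, 42 were higher in vitro (0.592% of the genes tested) and 3 were lower (0.0423%). S100A2, ABCB1, TEX12, GTSF1 and UHRF1 were higher in every in vitro embryo than in any in vivo derived embryo, by 7.37, 4.02, 3.12, 3.03 and 2.76 times in the fitted average, and GARNL3 and CNTNAP1 were lower in every one. S100A2 entered the test through its in vitro counts alone, which favours a difference.

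The in vivo derived embryos (5 male, 3 female) were flushed from superovulated Holstein cows 7 days after insemination, and the in vitro embryos, from oocytes of slaughtered Holstein cows, were harvested on day 6 or 7. Embryos produced in serum-containing medium (3 male, 5 female) had fetal bovine serum in both maturation and culture. Embryos produced in serum-free medium (5 male, 3 female) had epidermal growth factor in maturation, and albumin with insulin, transferrin and selenium in culture. The media thus differed at both steps, and one bull sired all embryos. The in vitro embryos came from 3 independent experiments and the in vivo derived ones from 3 cows, but the labels give neither the cow, the experiment nor the lane of an embryo, so p-values measure the spread between these embryos and those sources cannot be told apart from the conditions.

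The early blastocyst consists of the trophectoderm, an outer epithelium that contributes to the placenta, and the inner cell mass, from which the fetus arises. In vivo it develops in oviduct and uterine fluid, whereas in vitro production moves oocyte maturation, fertilization and culture into dishes, where the medium supplies all nutrients. A difference from in vivo derived embryos can therefore belong to a single medium or be shared by both.

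Exon counts per embryo ranged from 3253051 to 9000447. Levels are given as CPM, counts scaled to the library size, after TMM normalization, and differences as log2 values, in vitro minus in vivo, with their approximate standard error (SE). The 10 most counted genes took 11.5% of counts in in vivo derived embryos, 9.05% in serum and 10.6% in serum-free embryos (exact two-sided permutation test of 8 against 16 embryos, p = 0.00892, adjusted over 4 measures p = 0.0357). Total counts, genes detected and the mitochondrial share gave adjusted p-values of 0.833, 0.24 and 0.24 in the same exact test. Serum embryo B2 had a median Spearman correlation of 0.783 with the other embryos of its group, where the other serum embryos had 0.88 to 0.91, and C7 the lowest of serum-free embryos (0.887).

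The labelled stage was checked against markers. KRT8 of the trophectoderm ranged from 5691 to 11410 CPM in vivo, 40.2 to 4064 CPM in serum and 3796 to 22700 CPM in serum-free embryos. POU5F1 of the inner cell mass ranged from 180 to 243, 28.9 to 204 and 103 to 225 CPM in the same order. Every serum embryo was below the in vivo range for KRT8. For POU5F1 the lowest serum embryo was far below that range, while the highest was inside it. CDX2 did not exceed 2.44 CPM, and FGF4 and SOX17 were at or near 0 in all groups. No listed marker of uterine or oviduct epithelium was among the tested genes, and 2 of cumulus and granulosa cells were. Of blood markers, the alpha globin copies HBA_1 and HBA_2 were tested, and HBA_1 is a common gene. The summed level of 18 other blood markers ranged from 20.0 to 76.9 CPM in vivo, 34.6 to 131 CPM in serum and 10.1 to 75.6 CPM in serum-free embryos. CSF1R made up much of the serum sum, with medians of 7.79, 63.0 and 16.1 CPM in that order, while PTPRC did not exceed 2.93 CPM in any embryo. The part of these markers in the results was not tested, and in whole embryos fewer cells of a type and less RNA per cell cannot be told apart.

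In the average of both media 134 genes (1.89% of those tested) were higher in vitro and 163 (2.30%) were lower. Serum-containing medium gave far more calls, with 429 genes higher (6.05%) and 551 lower (7.76%), than serum-free medium, with 56 higher (0.789%) and 10 lower (0.141%). The common genes numbered 42 higher (0.592%) and 3 lower (0.0423%) in vitro, which was 4.59% of the 980 serum calls and 68.2% of the 66 serum-free calls. Both media were set against the same 8 in vivo derived embryos. Of the 297 genes called in the average, 240 were called in serum but not in serum-free medium, 85 of them higher and 155 lower, and the media differed at an adjusted p under 0.05 for 157 of the 297.

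How a gene entered the test bears on these counts. Of the 42 common genes higher in vitro, 24 reached 15 counts in all in vivo and also in all in vitro embryos, and 18 passed only because all in vitro embryos reached that count, an entry that itself favours a difference. These 18 were S100A2, OOEP, ASZ1, RNF17, CT55, RARB, PCP4L1, MGC137030, KLK5, FETUB, GPX2, AHSA2, EAF2, TCEAL8, MYL6B, TTC32, AKAP11 and ENSBTAG00000015666, and their p-values carry that limit. Without B2 and C7 together there were 68 common genes, 53 higher and 15 lower, of which 42 were among the 45. When medium was ignored, 126 genes were higher and 51 lower in vitro, against 134 and 163.

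**Figure D1:**
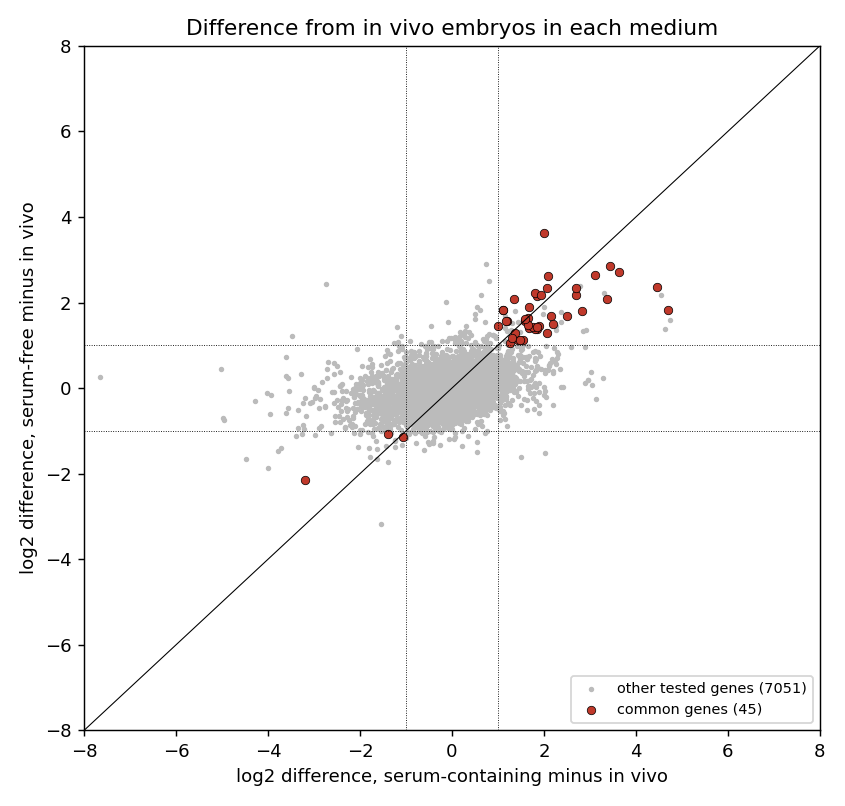
Log2 difference from in vivo derived embryos in serum-containing medium (horizontal axis) and in serum-free medium (vertical axis) for the tested genes, with the 45 common genes in red, dotted lines at 2-fold and the diagonal marking equal differences. The other genes spread widely along the serum axis and little along the serum-free axis, while 42 common genes lie at upper right and 3 at lower left.

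Across embryos, the common genes higher in vitro had a median log2 difference of 1.83 in serum and 1.66 in serum-free medium, where all tested genes had medians of 0.04 and 0.01. These medians follow from the choice of the genes. In serum 24 of the 42 were higher in every embryo than in any in vivo derived embryo, and in serum-free medium 12 were. The choice and entry of the genes favour such separation. The share over all tested genes was not computed for either medium by itself. Only 7 common genes separated all 8 from all 16 embryos, where 23 of all tested genes (0.324%) did.

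**Figure D2:**
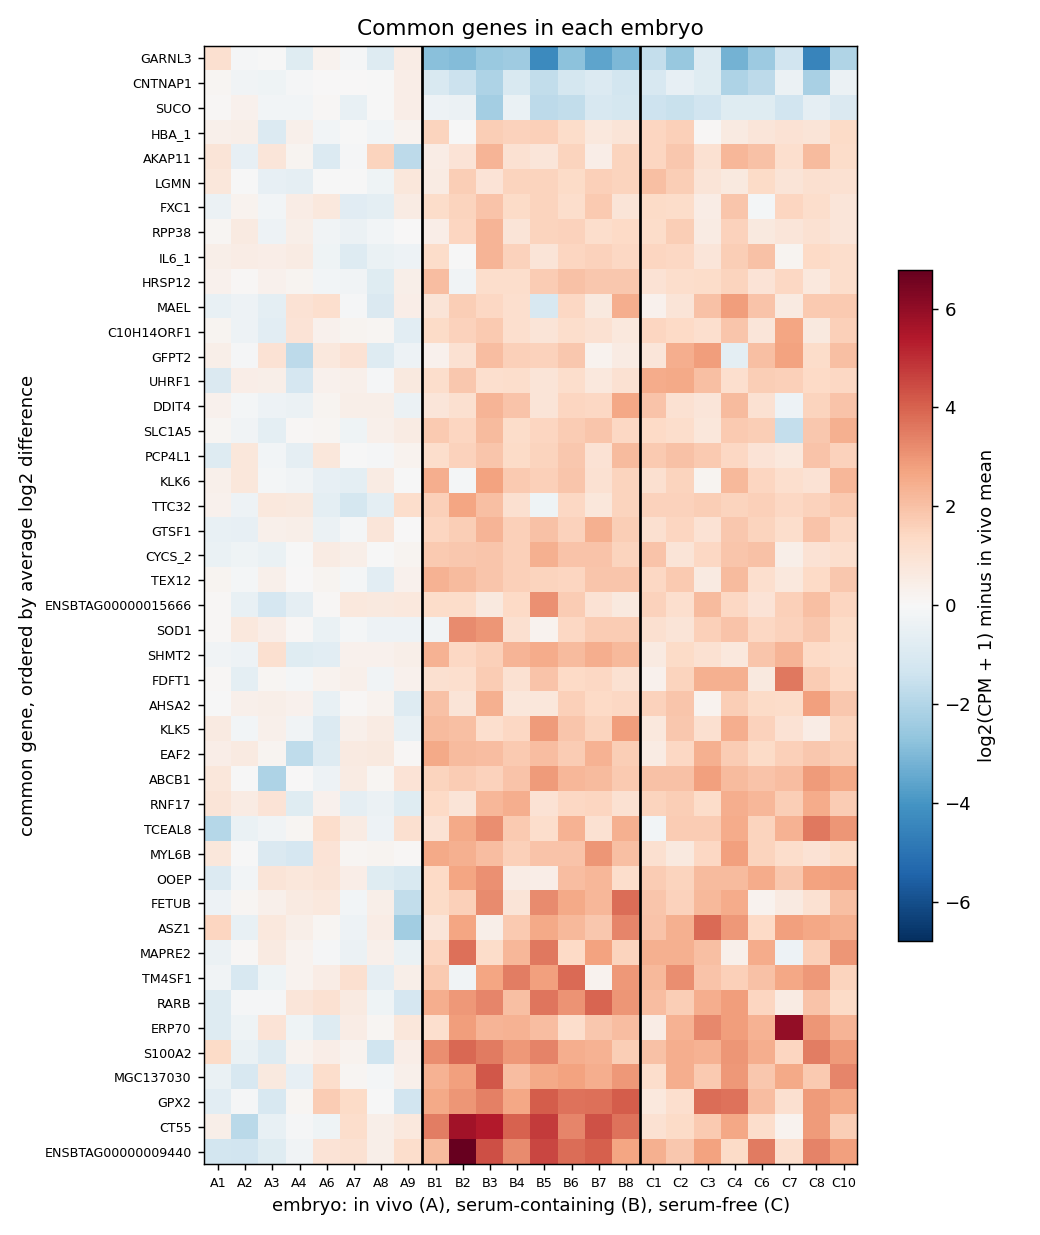
Each common gene (row) in each embryo (column) as log2(CPM + 1) minus its mean over in vivo derived embryos, with red higher and blue lower. The 16 in vitro embryos are mostly red for the 42 genes higher in vitro and blue for GARNL3, CNTNAP1 and SUCO, with exceptions such as SLC1A5 in C7.

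A set of 5 common genes was higher in every in vitro embryo than in every in vivo derived embryo. S100A2, a calcium-binding protein of the S100 family, had 0.938 to 11.4 CPM (median 4.84) in vivo, 15 to 73.8 CPM (median 40.4) in serum and 12.9 to 54.7 CPM (median 26.1) in serum-free embryos. Its difference was 2.88 ± 0.38 (SE, adjusted p = 3.04e-05, edgeR's quasi-likelihood test with Benjamini-Hochberg adjustment, as for all adjusted p-values below), and S100A2 is among the 18 genes that entered through their in vitro counts. ABCB1, which encodes the efflux pump P-glycoprotein, had 8.89 to 78.4 CPM (median 42.7) in vivo, 117 to 305 CPM (median 149) in serum and 158 to 308 CPM (median 179.9) in serum-free embryos. The lowest in vitro embryo stood above the highest in vivo embryo, with a difference of 2.01 ± 0.27 (adjusted p = 3.43e-05), and ABCB1 alone stayed common in each of the 24 fits that left out 1 embryo and in each of 11 other settings.

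TEX12, a component of the synaptonemal complex that pairs chromosomes in meiosis, had 40.6 to 84.2 CPM (median 72.1) in vivo, 183 to 350.5 CPM (median 246) in serum and 102 to 297 CPM (median 174) in serum-free embryos. The groups did not overlap, and the difference was 1.64 ± 0.18 (adjusted p = 6.33e-06). GTSF1, a zinc finger protein of the piRNA pathway that silences transposons in germ cells, had 36.9 to 96.6 CPM (median 51.9) in vivo, 148 to 295 CPM (median 173) in serum and 107 to 207 CPM (median 147) in serum-free embryos. It too separated all embryos, with a difference of 1.60 ± 0.19 (adjusted p = 6.33e-06).

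UHRF1, which brings the maintenance methyltransferase to newly replicated DNA, had 4.79 to 19.4 CPM (median 15.2) in vivo, 20.3 to 44.9 CPM (median 27.8) in serum and 27.0 to 74.6 CPM (median 38.7) in serum-free embryos. All in vitro embryos were above the in vivo range, though the gap was narrow, and the difference was 1.47 ± 0.26 (adjusted p = 0.00059). Leaving out A4 or B2 brought its serum difference to 0.99 in both cases, just under 2-fold, with adjusted p-values of 0.00726 and 0.00876. Among 12 tested genes of DNA methylation UHRF1 was the common member, while DNMT1 rose by 0.78 ± 0.20 in the average (adjusted p = 0.0103), less than 2-fold. DNMT3A (serum -2.46 ± 0.40, adjusted p = 9.91e-05) and DNMT3B (serum -2.39 ± 0.44, adjusted p = 0.000284), the de novo methyltransferases, fell in serum, and their serum-free values were -0.66 ± 0.38 and -0.28 ± 0.41.

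**Figure D3:**
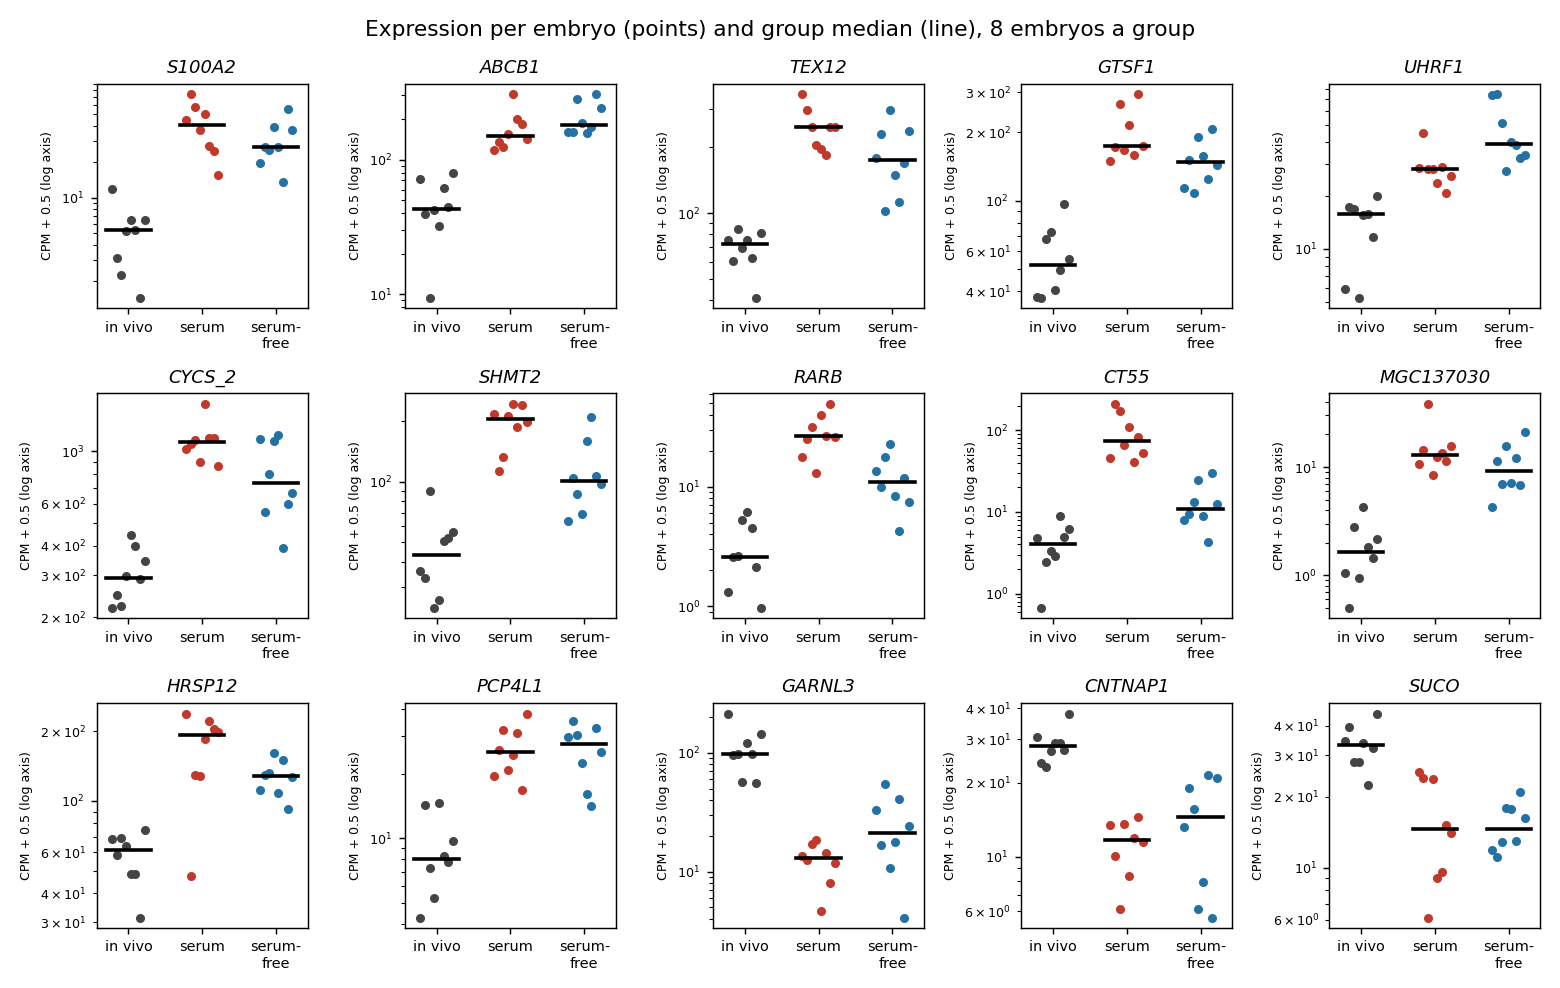
TMM-normalized CPM plus 0.5 on a log axis for 15 common genes, a point for each of the 8 embryos of a condition and a line at the median. The top row does not overlap between in vivo and in vitro embryos, and GARNL3, CNTNAP1 and SUCO in the bottom row are lower in vitro.

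Common genes of amino acid and one-carbon metabolism were SHMT2 and SLC1A5, and DDIT4 came from the list of amino acid response genes. SHMT2, the mitochondrial enzyme that converts serine to glycine and a one-carbon unit, had 23.3 to 89.1 CPM (median 43.1) in vivo, 112 to 242 CPM (median 202) in serum and 63.5 to 208 CPM (median 100.3) in serum-free embryos. Serum embryos all lay above the in vivo range, 5 of 8 serum-free embryos did, and the difference was 1.68 ± 0.24 (adjusted p = 7.29e-05). SLC1A5, a transporter of glutamine and other neutral amino acids, had 12.6 to 30.6 CPM (median 22.1) in vivo, 51.1 to 95.1 CPM (median 63.7) in serum and 6.08 to 114 CPM (median 61.0) in serum-free embryos. C7, at 6.08 CPM, was the single in vitro embryo inside or below the in vivo range, and the difference was 1.57 ± 0.29 (adjusted p = 0.00104).

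DDIT4, an inhibitor of the growth kinase complex mTORC1, had 34.1 to 59.3 CPM (median 46.0) in vivo, 79.2 to 283 CPM (median 123) in serum and 34.7 to 202 CPM (median 111) in serum-free embryos. One serum-free embryo was within the in vivo range, and the difference was 1.55 ± 0.27 (adjusted p = 0.000582). In the list of serine and one-carbon enzymes 3 of 18 tested genes were called higher and none lower in the average, with a median of 0.31 against 0.02 over all tested genes. The third, GLDC of the glycine cleavage system, rose in serum by 2.29 ± 0.47 (adjusted p = 0.000834) and had 0.71 ± 0.46 in serum-free medium (adjusted p = 0.515). In the amino acid response list DDIT4 was the 1 gene called of 15 (median 0.08), while AARS (0.06 ± 0.20), SARS (0.04 ± 0.14) and EPRS (0.08 ± 0.17), which charge transfer RNAs, were not called.

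FDFT1, squalene synthase, the first enzyme committed to sterols, had 26.4 to 54.0 CPM (median 46.2) in vivo, 86.7 to 163 CPM (median 103) in serum and 51.9 to 519.8 CPM (median 133) in serum-free embryos. All serum and 7 of 8 serum-free embryos exceeded the in vivo range, and the difference was 1.72 ± 0.30 (adjusted p = 0.00056). The FDFT1 maximum in serum-free medium came from C7, and the next embryo, C3, had 235 CPM. Its call was kept in all 24 fits without 1 embryo. FDFT1 was the 1 common gene among 15 tested genes of the sterol synthesis list, which was matched by symbol. Genes of the pathway that carry another symbol in these data would be missed by the list. Of these 15, 4 were higher and 0 lower in the average, where 1.89% of all tested genes were higher (median 0.74, serum 0.17, serum-free 1.17). HMGCS1, an early enzyme of the pathway, rose in serum-free medium by 2.90 ± 0.60 (adjusted p = 0.00986) against 0.73 ± 0.56 in serum (adjusted p = 0.33), and the media differed (adjusted p = 0.00891). C7 set the HMGCS1 maximum of 1461 CPM, and without it the serum-free value was 1.90 (adjusted p = 0.0186) and the difference between the media -1.17 (adjusted p = 0.0514). IDI1, which isomerizes isopentenyl diphosphate, had 2.02 ± 0.51 in serum-free medium (adjusted p = 0.0392) and -0.13 ± 0.50 in serum (adjusted p = 0.861). Without C7 the serum-free value of IDI1 was 1.07 (adjusted p = 0.161), and its adjusted p was also above 0.05 without A1, A2, A3, A4, A6, A8, A9, C4 or C8.

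Enzymes that handle reactive oxygen were called in both directions. SOD1, the cytosolic superoxide dismutase, had 45.9 to 105 CPM (median 61.0) in vivo, 53.6 to 598 CPM (median 189) in serum and 116 to 243 CPM (median 178) in serum-free embryos. In all serum-free and 6 serum embryos it lay above the in vivo range, and the difference was 1.67 ± 0.33 (adjusted p = 0.00158), though 8 of the 24 fits without 1 embryo (A1, A4, A6, A7, A8, A9, C4 or C8) gave a serum-free adjusted p between 0.0587 and 0.072. Of 15 tested antioxidant genes 1 was called higher and 1 lower in the average (median 0.23), the latter being PRDX6, a peroxidase that fell by 1.67 ± 0.26 in serum (adjusted p = 5.51e-05) and had -0.36 ± 0.25 in serum-free medium. Its average fell under 2-fold without A3, A6, A7, A8, B1, B2, B5, B7 or C1, to 0.96 at the smallest size. GPX2, a glutathione peroxidase outside that list, had 0 to 7.37 CPM (median 1.39) in vivo, 13.5 to 42.5 CPM (median 28.1) in serum and 3.03 to 33.6 CPM (median 11.7) in serum-free embryos. It overlapped in 3 serum-free embryos, with a difference of 3.17 ± 0.58 (adjusted p = 0.00102), and like the other common genes named below apart from LGMN, OOEP, CYCS_2, HRSP12, PCP4L1, RARB, ERP70, CT55, MGC137030 and the lower genes, it was picked after its values were seen.

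LGMN, legumain, a lysosomal protease, had 37.7 to 99.7 CPM (median 55.6) in vivo, 84.4 to 183 CPM (median 167) in serum and 91.7 to 235 CPM (median 120.5) in serum-free embryos. One embryo of each medium was inside the in vivo range, and the difference was 1.24 ± 0.21 (adjusted p = 0.000377). It was the 1 common gene of 24 tested lysosomal genes, where PSAP, the precursor of saposins, fell by 0.90 ± 0.11 (adjusted p = 1.98e-05), short of 2-fold, and the list's median was -0.17. CYCS_2, a numbered copy of the cytochrome c gene, had 218 to 441 CPM (median 293) in vivo, 867 to 1588 CPM (median 1095) in serum and 389.6 to 1167 CPM (median 735) in serum-free embryos. One serum-free embryo overlapped and the difference was 1.61 ± 0.19 (adjusted p = 6.33e-06), but counts of near-identical copies such as this one are uncertain.

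HRSP12, now RIDA, a deaminase of reactive imines, had 30.9 to 74.1 CPM (median 60.7) in vivo, 46.8 to 238 CPM (median 191) in serum and 92.2 to 161 CPM (median 128) in serum-free embryos. Only B2, at 46.8 CPM, lay inside the in vivo range, and the difference was 1.34 ± 0.21 (adjusted p = 0.000176). GFPT2, which starts the hexosamine pathway, had a difference of 1.46 ± 0.39 (adjusted p = 0.0137) with 5 serum and 6 serum-free embryos above the in vivo range. Its call was lost in 15 of the 24 fits without 1 embryo (kept without A3, A6, A7, B1, B7, B8, C1, C4 or C7), where the adjusted p reached 0.104 in serum and 0.0615 in serum-free medium.

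OOEP, part of the subcortical maternal complex of the oocyte, had 0.711 to 5.41 CPM (median 2.92) in vivo, 3.81 to 28.4 CPM (median 10.9) in serum and 8.79 to 23.0 CPM (median 14.2) in serum-free embryos. All serum-free and 6 serum embryos exceeded the in vivo range, and the difference was 2.21 ± 0.43 (adjusted p = 0.0014), for a gene that entered through its in vitro counts. Of the other oocyte markers only DPPA3 had enough counts to be tested (-0.07 ± 0.14, adjusted p = 0.769), and the summed level of 21 oocyte markers ranged from 332 to 562 CPM in vivo, 334 to 1055 CPM in serum and 413 to 1128 CPM in serum-free embryos. DPPA3 made up much of that sum, with medians of 442, 442 and 397 CPM. BTG4, an oocyte regulator of messenger RNA decay, missed the limit of 15 counts in some embryos of both sides and was not tested. Its medians were 0.415 CPM in vivo, 7.12 CPM in serum and 69.7 CPM in serum-free embryos. BMP15, an oocyte growth factor, was not tested either, with medians of 0.0862, 2.18 and 6.92 CPM. Not all untested oocyte markers rose. In the same order, TLE6 had medians of 7.31, 6.66 and 6.19 CPM, NLRP5 0.912, 0.214 and 0 CPM, and ZP3 2.09, 2.14 and 2.21 CPM. The part of oocyte transcripts in the OOEP value was not tested.

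MAEL, ASZ1 and RNF17, chosen after their values were seen, act in the piRNA pathway of germ cells. ASZ1 had 0 to 13.0 CPM (median 5.32) in vivo, 5.87 to 49.9 CPM (median 20.0) in serum and 12.3 to 74.6 CPM (median 28.6) in serum-free embryos, with 13 of 16 in vitro embryos above the in vivo range and a difference of 2.35 ± 0.47 (adjusted p = 0.00171). RNF17 was higher by 2.01 ± 0.40 (adjusted p = 0.00161) at a median of 1.54 CPM in vivo. Both ASZ1 and RNF17 entered the test through their in vitro counts alone, which favours a difference. MAEL was higher by 1.37 ± 0.37 (adjusted p = 0.0148), but with wide overlap, and its call was lost in 17 of the 24 fits without 1 embryo (kept without A4, A6, B2, B5, C1, C2 or C7), where the adjusted p reached 0.0791 in serum and 0.126 in serum-free medium.

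CT55, a cancer/testis antigen, had 0.172 to 8.44 CPM (median 3.58) in vivo, 39.9 to 211 CPM (median 74.0) in serum and 3.8 to 29.8 CPM (median 10.5) in serum-free embryos. Every serum embryo and 5 of 8 serum-free embryos lay above the in vivo range, and the difference was 4.69 ± 0.52 in serum and 1.84 ± 0.48 in serum-free medium (adjusted p = 1.55e-06 and 0.049). The serum-free call was lost in 16 of the 24 fits without 1 embryo (kept without A7, B1, B2, B3, B6, B8, C1 or C7), where its adjusted p ranged from 0.0509 to 0.109.

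RARB, a receptor for retinoic acid, had 0.474 to 5.71 CPM (median 2.1) in vivo, 12.5 to 48.9 CPM (median 25.8) in serum and 3.8 to 22.2 CPM (median 10.5) in serum-free embryos. One serum-free embryo overlapped, and the difference was 2.72 ± 0.40 (adjusted p = 7.29e-05). ERP70, of the endoplasmic reticulum, had 5.94 to 24 CPM (median 11.5) in vivo, 27.1 to 90.7 CPM (median 53.6) in serum and 17.4 to 802 CPM (median 78.5) in serum-free embryos. C7 set its maximum, and the difference was 2.81 ± 0.53 (adjusted p = 0.0014), with 2.23 the lowest value without 1 embryo. Its serum-free difference was 3.63 ± 0.58 with C7, at 802 CPM, and 2.48 without it. The list of endoplasmic reticulum chaperones was matched by symbol and does not hold ERP70. Of its 14 tested genes 0 were called in the average (median 0.23), while HSP90B1 (1.44 ± 0.35, adjusted p = 0.0314) and MANF (1.33 ± 0.23, adjusted p = 0.00266) rose in serum-free medium. Without C7 the serum-free value of HSP90B1 was 0.70 (adjusted p = 0.0246) and that of MANF 0.92 (adjusted p = 0.00021), and without any 1 of the 8 in vivo derived embryos the adjusted p of HSP90B1 was above 0.05, up to 0.0685.

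PCP4L1 had 3.79 to 14.0 CPM (median 7.52) in vivo, 16.2 to 37.5 CPM (median 24.6) in serum and 13.7 to 34.4 CPM (median 26.9) in serum-free embryos, a difference of 1.58 ± 0.26 (adjusted p = 0.000272) with 1 overlapping serum-free embryo. MGC137030 was higher by 3.15 ± 0.48 (adjusted p = 0.000146) from a median of 1.14 CPM in vivo, and all but 1 in vitro embryo were above the in vivo range. KLK5 and KLK6, serine proteases of the kallikrein family, were higher by 1.85 ± 0.32 and 1.59 ± 0.30 (adjusted p = 0.000516 and 0.00106). Without C4 their serum-free adjusted p-values were 0.0571 and 0.052.

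FETUB, a protease inhibitor that keeps the zona pellucida from hardening, had 0.237 to 5.47 CPM (median 3.67) in vivo, 6.16 to 53.8 CPM (median 20.3) in serum and 3.7 to 21.9 CPM (median 12.1) in serum-free embryos. All serum and 6 serum-free embryos exceeded the in vivo range, and the difference was 2.31 ± 0.44 (adjusted p = 0.00133), but the call was lost in 17 of the 24 fits (kept without B1, B2, B4, B5, B8, C6 or C7), with serum-free adjusted p-values of 0.0531 to 0.115. TM4SF1 (2.52 ± 0.43, adjusted p = 0.000531) and MAPRE2 (2.44 ± 0.42, adjusted p = 0.00056), a microtubule end-binding protein, kept their calls in all 24. HBA_1, a numbered copy of alpha globin, had 5.02 to 14.0 CPM (median 11.4) in vivo, 10.3 to 35.7 CPM (median 28.6) in serum and 11.1 to 33.9 CPM (median 20.7) in serum-free embryos, and the difference was 1.16 ± 0.25 (adjusted p = 0.00306). HBA_2, a further copy that was not common, had medians of 12.5 CPM in vivo, 39.1 CPM in serum and 24.3 CPM in serum-free embryos. The HBA_1 call was kept only without B2, B3, B5, B7 or C3 and lost in 19 fits, with serum-free adjusted p-values of 0.0514 to 0.106. Beta globin HBB, its partner in red cells, did not exceed 2.94 CPM in any embryo.

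IL6_1, a numbered copy of interleukin 6, rose by 1.32 ± 0.25 (adjusted p = 0.00102) with 14 of 16 in vitro embryos above the in vivo range. The remaining common genes higher in vitro were AHSA2, EAF2, TCEAL8, MYL6B, TTC32, AKAP11, FXC1, RPP38, C10H14ORF1 and 2 loci known only by Ensembl identifier. Their differences ranged from 1.23 for AKAP11 to 3.41 for ENSBTAG00000009440, and 27 of all 45 common genes kept their call in every fit without 1 embryo. AKAP11 kept it only without A8, B1, B2, B5, B7, C3 or C7, FXC1 without A6, B2, B3, B5, B8, C3 or C6, and TTC32 without A9, B2, B3, B5 or B7, with serum-free adjusted p-values of up to 0.103, 0.121 and 0.099. In serum the AKAP11 adjusted p reached 0.128 and its difference went down to 0.75. Calls were lost without A2, A3, A4, A7, A8, A9 or C4 for MYL6B, without A3, A6, A7, A8, C2 or C4 for RPP38, without A1, A2, A3, A4, A6, A8, C6, C8 or C10 for ENSBTAG00000009440, and without A1, A2, A3, A4, A6 or C8 for ENSBTAG00000015666, with serum-free adjusted p-values of up to 0.0967, 0.0605, 0.0805 and 0.0635.

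The genes called lower in both media numbered 3. GARNL3, named for a Rap GTPase-activating domain, had 55.1 to 215 CPM (median 96.9) in vivo, 4.16 to 18.1 CPM (median 12.5) in serum and 3.59 to 54.0 CPM (median 20.6) in serum-free embryos. The highest serum-free embryo came close to the lowest in vivo derived embryo without overlap, and GARNL3 fell by 2.67 ± 0.31 (adjusted p = 6.33e-06). CNTNAP1, an adhesion protein best known from the junctions of myelinated axons, had 22.6 to 37.7 CPM (median 27.6) in vivo, 5.63 to 14.0 CPM (median 11.2) in serum and 5.16 to 21.0 CPM (median 13.9) in serum-free embryos. It did not overlap either and fell by 1.23 ± 0.24 (adjusted p = 0.00131), but 18 of the 24 fits lost the call (kept without B2, B3, B5, C2, C7 or C10), with serum-free adjusted p-values of 0.0514 to 0.105.

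SUCO, a SUN domain protein of the endoplasmic reticulum, had 22.0 to 44.5 CPM (median 32.5) in vivo, 5.63 to 25.1 CPM (median 14.1) in serum and 10.5 to 20.4 CPM (median 14.1) in serum-free embryos. All serum-free and 5 serum embryos lay below the in vivo range, and SUCO fell by 1.11 ± 0.23 (adjusted p = 0.00211), with the call lost in the 10 fits without A1, A2, A6, A8, A9, B3, B5, B6, C1 or C2, where the serum-free adjusted p reached 0.0627 and the smallest serum decrease was 0.95 on the log2 scale.

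Whether the shift was of the same size in both media was asked of each common gene. Over all tested genes the media differed at an adjusted p under 0.05 for 1730 (24.4%), 724 of them by at least 2-fold. Among the common genes 20 had a 95% interval of the serum minus serum-free difference between -1 and 1, so that the media were within 2-fold of each other, where 54.2% of all tested genes had such an interval, 6 differed between the media, and 19 did neither. PCP4L1 was among the closest, with an interval of -0.53 to 0.58, and LGMN (-0.34 to 0.57), SUCO (-0.49 to 0.63), IL6_1 (-0.47 to 0.62), SLC1A5 (-0.45 to 0.82) and DDIT4 (-0.31 to 0.87) were also within 2-fold.

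CT55 was higher in serum than in serum-free embryos by 2.85 ± 0.47 (adjusted p = 0.000291), and ENSBTAG00000009440 (2.08 ± 0.57, adjusted p = 0.0107), RARB (1.28 ± 0.39, adjusted p = 0.0183) and SHMT2 (0.78 ± 0.26, adjusted p = 0.0282) were too. ERP70 (-1.63 ± 0.53, adjusted p = 0.0279) and GARNL3 (-1.05 ± 0.39, adjusted p = 0.048) were lower in serum than in serum-free embryos. Without C7 the ERP70 difference between the media was -0.49 (adjusted p = 0.315). Without B2, at 1799 CPM, that of ENSBTAG00000009440 was 1.15 (adjusted p = 0.0639). The adjusted p of GARNL3 stayed under 0.05 only without A1, A4, A8, B3, B4, C2, C4, C6 or C8 and otherwise reached 0.135, and that of SHMT2 passed 0.05 without B5, B7, C1, C3 or C4, up to 0.0553.

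**Figure D4:**
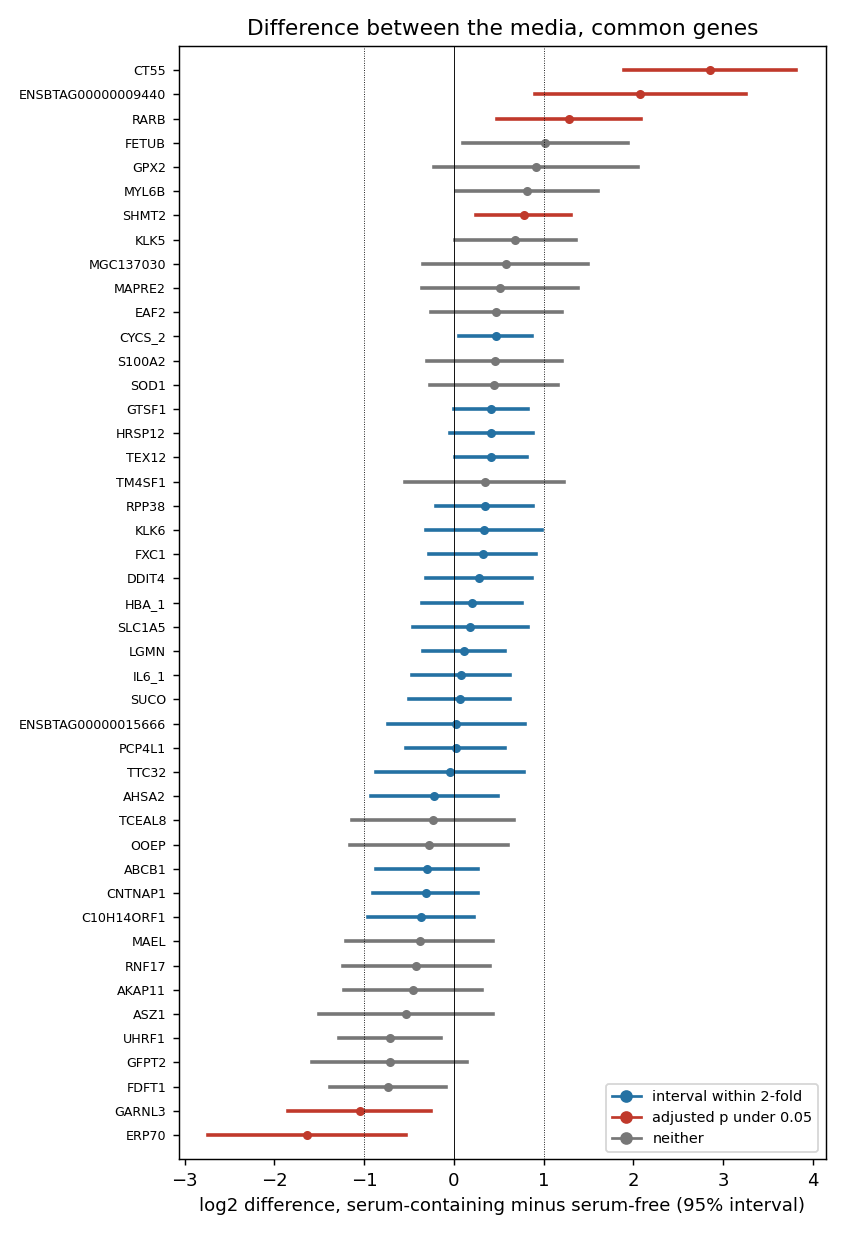
Serum minus serum-free log2 difference (point) with its 95% interval (line) for the 45 common genes, in blue where the interval lies within 2-fold, red where the adjusted p is under 0.05 and grey otherwise. CT55 stands farthest to the right at 2.85 and ERP70 farthest to the left at -1.63, or at -0.49 without embryo C7.

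Some genes separated all in vivo from all in vitro embryos without being common, since a medium fell short of the fold or the threshold. NCLN, which encodes nicalin, had 23.7 to 30.0 CPM (median 26.3) in vivo, 61.8 to 136 CPM (median 92.3) in serum and 32.8 to 71.5 CPM (median 47.7) in serum-free embryos, and its difference was 1.86 ± 0.19 in serum and 0.85 ± 0.19 in serum-free medium (adjusted p = 1.35e-06 and 0.015). SSSCA1 followed the same order (1.50 ± 0.18 and 0.89 ± 0.18, adjusted p = 4.24e-06 and 0.00775). ABCB6, a porphyrin transporter, was lower in both (-1.61 ± 0.32 and -0.94 ± 0.31, adjusted p = 0.000492 and 0.126), and SLC28A2, a nucleoside transporter, was higher (4.54 ± 0.63 and 2.18 ± 0.60, adjusted p = 1.83e-05 and 0.0598). These 4 were named after their values were seen.

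Genes called in opposite directions numbered 1. S100A5, of the S100 family, had 53.5 to 154 CPM (median 114) in vivo, 16.4 to 63.7 CPM (median 53.4) in serum and 98.8 to 357 CPM (median 199) in serum-free embryos. It fell by 1.27 ± 0.27 in serum (adjusted p = 0.00113) and rose in serum-free medium by 1.05 ± 0.27 (adjusted p = 0.0463), where the adjusted p stayed under 0.05 only without B1, B2, B4, B5, B7, B8, C1 or C3 and otherwise reached 0.0966. SFN, an epithelial 14-3-3 protein induced by p53, fell by 3.30 ± 0.64 in serum (adjusted p = 0.000526) and had 0.33 ± 0.57 in serum-free medium (adjusted p = 0.861), and the media differed (adjusted p = 0.000596). Without C7 the SFN difference between the media was -2.96. Its average value was -1.48 ± 0.49 (adjusted p = 0.0412), under 0.05 only without A4, A9, B2, B4, B6, B8, C7 or C8 and otherwise up to 0.0906. PHGDH, the first enzyme of serine synthesis, had 0.49 ± 0.67 in serum and 1.73 ± 0.68 in serum-free medium and was called in neither (adjusted p = 0.598 and 0.238).

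Lists of lineage genes held no common gene. Of 10 tested trophectoderm genes 3 (KRT8, KRT18 and GATA2) were lower and 0 higher in the average, where 2.30% of all tested genes were lower, but the median was -1.88 in serum and 0.17 in serum-free medium. KRT8, a keratin of the trophectoderm, fell by 3.00 ± 0.64 in serum (adjusted p = 0.00113) and had 0.00 ± 0.59 in serum-free embryos, and KRT18 (-2.60 ± 0.53, adjusted p = 0.000834, and -0.09 ± 0.50) followed. The average call was lost for KRT8 in 17 of the 24 fits without 1 embryo (kept without A4, B2, B6, B7, B8, C7 or C8, adjusted p up to 0.0755) and for KRT18 without A1, A2, A3 or A7 (up to 0.0716), and the serum value of KRT8 was -3.69 without B8. TFAP2C, a transcription factor of the lineage, had 0.23 ± 0.18 (adjusted p = 0.405). In the apical membrane list 2 of 11 (the proteases PRSS8 and ST14) were lower and 0 higher (medians -1.27 in serum and 0.00 in serum-free), and in the tight junction list 1 of 19 (CLDN7) was lower and 0 higher (-0.75 and -0.06). ST14 was not called without A1, A2, A3, A4, A6, A7, A8, C4, C6 or C10 (adjusted p up to 0.0846), nor CLDN7 without A1 (0.0571). The epiblast list had DNMT3B lower of 11 (median -0.07), the hypoblast list PDGFRA of 8 (median -0.49), and the basement membrane list NID2 higher and DAG1 lower of 10 (median -0.28).

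Calls of the metabolic, stress and cell cycle lists in the average stand against 1.89% higher and 2.30% lower over all tested genes, and the genes named in this and the next paragraph were named after their values were seen. Fatty acid synthesis and handling had 1 of 14 higher (median -0.07), FABP5, a fatty acid carrier, with 2.79 ± 0.73 in serum (adjusted p = 0.00527) and 2.39 ± 0.72 in serum-free medium (adjusted p = 0.0945, 95% interval 0.91 to 3.87). Without B2 the serum value of FABP5 was 1.55 (adjusted p = 0.0353). A p-value above the threshold, as here, does not show that embryos were alike. Beta-oxidation had 1 of 14 lower (median -0.24), ACADS, which oxidizes short chains, with -3.56 ± 0.55 in serum (adjusted p = 5.64e-05) and -0.47 ± 0.49 in serum-free medium, the serum value of ACADS being -4.18 without B4. NSDHL, a late enzyme of sterol synthesis also called in the average, had 0.96 ± 0.35 in serum and 1.17 ± 0.35 in serum-free medium, where its adjusted p was 0.0945, and NSDHL lost its average call without A2, A3, A8, B3 or C7 (adjusted p up to 0.0559, smallest value 0.93). Glycolysis (14 tested, median -0.07), the citric acid cycle (25 tested, median -0.31) and the mitochondrial genome (13 tested, median -0.25) had 0 calls. The lysosomal gene called lower was CTSZ, a cathepsin, with -3.36 ± 0.53 in serum (adjusted p = 7.03e-05) and -0.93 ± 0.48 in serum-free medium.

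Heat shock genes had 1 of 13 higher (median 0.03), the inducible chaperone HSPA1A, with 2.36 ± 0.58 in serum (adjusted p = 0.0033) and 1.77 ± 0.57 in serum-free medium (adjusted p = 0.121). Without B2 the serum value of HSPA1A was 1.70 (adjusted p = 0.0132). The p53 targets had SFN lower of 9 (median 0.18). DNA repair had 0 of 35 (median -0.12), and the cell cycle 1 of 27 lower (median 0.02), cyclin CCND2, with -3.26 ± 0.66 in serum (adjusted p = 0.000803) and -1.06 ± 0.61 in serum-free medium. Interferon response genes had 2 of 6 lower (median -0.26), the transcription factor IRF1 with an average of -1.27 ± 0.38, not called without A3, A7 or A8 (adjusted p up to 0.0588), and IFI35 with -2.36 ± 0.48 in serum and -0.23 ± 0.45 in serum-free medium. DNA methylation had 1 of 12 higher and 2 lower (median 0.07). Imprinted genes (5 tested, median 0.15), FGF and ERK feedback genes (10 tested, median -0.44), insulin and growth factor genes (5 tested, median 0.14) and cumulus and granulosa markers (2 tested, median -0.18) had 0.

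**Figure D5:**
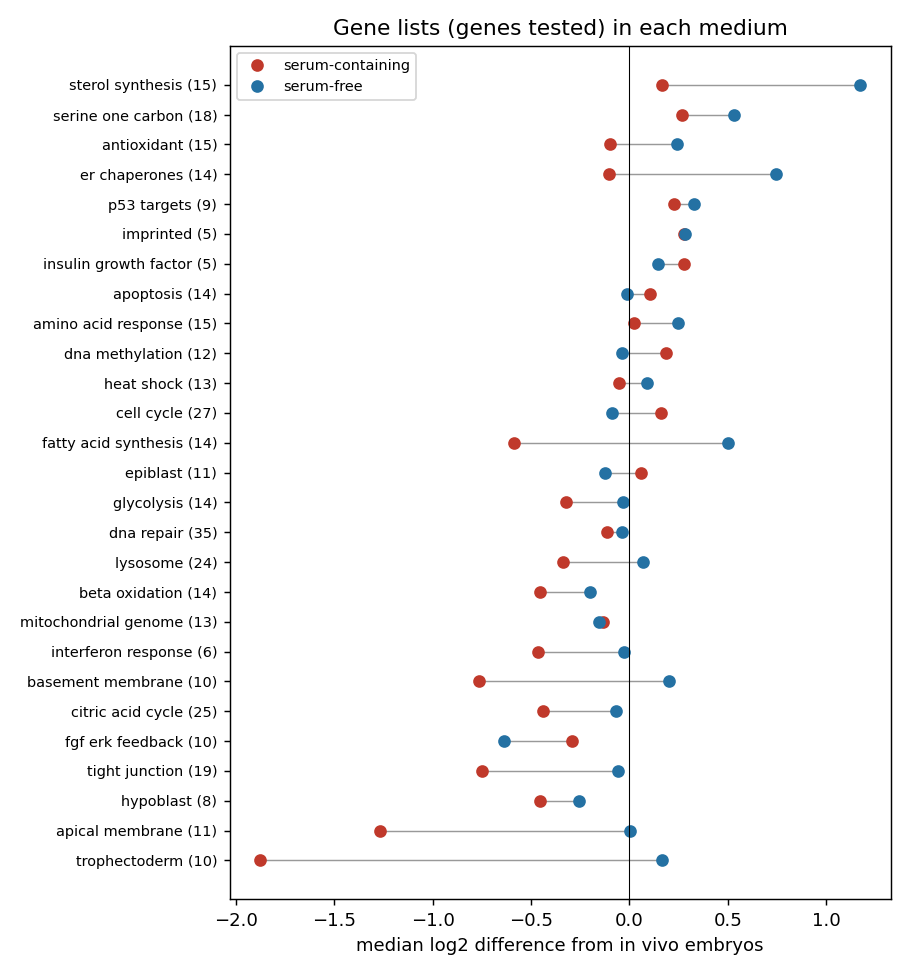
Median log2 difference from in vivo derived embryos in serum-containing (red) and serum-free (blue) medium for each list with at least 5 tested genes, the number in brackets being the genes tested. The trophectoderm list has the widest gap, from -1.88 in serum to 0.17 in serum-free medium.

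Male and female embryos were compared for the common genes, which had been chosen on the same embryos. All 45 common genes had the same direction in male and in female embryos, and 43 reached 2-fold in males and 43 in females. The choice of the genes favours such agreement. In fits of male or of female embryos alone, with fewer embryos, 9 and 1 of the 45 were called common. S100A2 had 2.88 in males and 2.84 in females, ABCB1 2.17 and 1.84, and GARNL3 -2.92 and -2.60. The smallest male value among the genes higher in vitro was 0.51, for AKAP11, whose female value was 2.51. The interaction of sex and culture reached an adjusted p under 0.05 for 0 of 7096 genes in edgeR. In DESeq2 it did so for 0 of the 7093 genes given an adjusted p. With edgeR 282 genes had an unadjusted p under 0.05, where the number of tests alone gives 354.8. With 3 to 5 embryos of a sex per condition, a difference between the sexes could be missed.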

How the data were processed

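Single early blastocysts were sequenced, each embryo being 1 replicate. The authors mapped reads with CLC Genomics Workbench to the bovine genome, UMD3.1 in the processing notes, and deposited raw counts, for each gene, of uniquely placed exonic fragments, made without regard to strand. Counts of overlapping or near-identical genes are therefore uncertain. Genes carry no coordinates, and no promoter or protein sequence was used here. The members and gene lists were chosen with earlier results of these data known.

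Condition and sex came from the labels. Counts were normalized with TMM and fitted in edgeR 4.0.16 (R 4.3.3, robust quasi-likelihood test) as 3 groups over 24 embryos, with contrasts for the average of both media, for each medium and between the media. Tested genes had at least 15 counts in all 8 in vivo or all 16 in vitro embryos. Benjamini-Hochberg adjustment ran over all 7096, and a call required an adjusted p under 0.05 and 2-fold. Standard errors are approximate, from the estimate and its F statistic. Sex was tested as an interaction in a 6-group fit. Alternatives were DESeq2 1.42.0, its size factors, other count limits, sex as a covariate, a replicate block, thinning, separate fits, edgeR's exact test, single sexes, and leaving out embryos. The 31 lists are described by counts and medians, and some members and 1 list are not reported here. Of the 45 common genes, 39 matched a RefSeq symbol and 2 a synonym. The script was tested on simulated data. Depth was 3253051 to 9000447 counts per embryo, and values cover counting error and the spread between embryos. Named genes were the common genes without overlap or of smallest adjusted p with at least 10 CPM, list members, PHGDH, HMGCS1, IDI1, SFN, the opposite gene, up to 5 common genes differing between media, and up to 4 highest members of described lists.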

Additional observations from a re-analysis of the deposited data

Results flagged for a closer look

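Single embryos far from the rest of their group, by Dixon's criterion (gene levels on the log2(CPM + 1) scale), occurred in 13 of 147 groups of 8 examined, where chance gives about 1 in 20 (7.35). In vivo derived embryo A3 was low for ABCB1 (8.89 CPM) and HBA_1 (5.02 CPM), A8 for TEX12 (40.6 CPM) and A9 for FETUB (0.237 CPM). Serum embryo B2 was low for HRSP12 (46.8 CPM) and high for UHRF1 (44.9 CPM). B5 was high for CYCS_2 (1588 CPM), ENSBTAG00000015666 (44.1 CPM) and total counts (9000447), and B3 for MGC137030 (38.0 CPM). Serum-free embryo C4 was high for MYL6B (20.8 CPM), and C7 was low for SLC1A5 (6.08 CPM) and high for the share of the 10 most counted genes (13.8%).

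Of the common genes, 6 differed in size between the media. The serum minus serum-free log2 difference was 2.85 for CT55, 2.08 for ENSBTAG00000009440, 1.28 for RARB, 0.78 for SHMT2, -1.05 for GARNL3 and -1.63 for ERP70. On the linear scale C7 stood apart for ERP70 (802 CPM) and B2 for ENSBTAG00000009440 (1799 CPM), and without them those differences were -0.49 (adjusted p = 0.315) and 1.15 (adjusted p = 0.0639).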

How the results depend on the processing

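The number of common genes (45) was 68 with DESeq2, 27 with 15 counts required in all 24 embryos, 18 with the replicate block, 12 in male and 2 in female embryos alone, 71 with separate fits per medium, 89 with edgeR's exact test in separate comparisons, 81 with no limit on the fold change, and 68 without B2 and C7 together, a setting added after seeing the data. Of the 45, 44 were shared with DESeq2, 44 with the separate fits and 26 with the strictest count limit. That limit left untested the 18 genes that had entered through their in vitro counts alone. Leaving out each embryo gave 32 to 57. The average calls (297) were 509 with a limit of 1 count in any embryo, 127 with 15 counts in all embryos, 177 in 2 groups without medium, 7 in females alone and 220 with the replicate block, and 242 to 372 without 1 embryo. Genes differing between the media by 2-fold (724) numbered 384 with 15 counts in all embryos, 478 with the replicate block, 1 in females alone and 454 without B2 and C7, and 557 to 897 without 1 embryo. The interaction stayed at 0 in every fit run. Embryos of the same number share only a number (correlation of deviations from group means -0.13 to 0.09 over 21 pairs, mean -0.03, against 0.0035 for other numbers, and the same number correlated best in 3 of 42 comparisons of an embryo with another group), so the replicate block models no pairing. No common gene changed direction in a setting that tested it. S100A5, not called in the average, went to 0.0359 with the replicate block and PHGDH to -0.38 in male embryos. Fewer embryos enter the single-sex fits, and the cause of the other changes was not tested. The planned description of promoter motifs was not made. Depth and 8 embryos a group limit what could be called.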
